A study of Mus musculus with 32 samples.

Results

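Endothelial cells (ECs) and macrophages (MΦs) sorted from the same kind of islet preparation were compared 1 week after doxycycline withdrawal (1wk WD), when the β cells of these mice regenerate. The comparison set the 5 samples titled 1wk WD-ECs against the 4 titled 1wk WD-Mphs, which are 9 of the 32 samples of the series. It was read through 24 lists of secreted ligands, receptors and matrix genes, which together named 903 genes, of which 897 were matched to the table, 4 were not matched and 2 had symbols that named more than 1 gene. All mice carried the transgenes MIP-GFP; RIP-rtTA; TetO-VEGF-A (βVEGF-A mice). The rat insulin promoter drives the transactivator in β cells, so that doxycycline (Dox) switches on human VEGF-A there, and a mouse insulin promoter marks β cells with GFP. Mice of the 1wk WD groups had received Dox for 1 week and then none for 1 week, and the 4 EC and 4 MΦ samples labelled No Dox, used below as a baseline, came from mice of the same genotype that were never induced. Islets of several adult mice were pooled for each sample, and ECs and MΦs were sorted from the dispersed cells as CD31+ and CD11b+, so Pecam1 and Itgam, which encode these antigens, were sorting criteria and are no finding.

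Islet ECs line a dense bed of fenestrated capillaries, and their basement membrane is the surface on which β cells rest. ECs read VEGF through receptor tyrosine kinases, angiopoietins through TEK, and Notch, ephrin and semaphorin signals from neighbouring cells. Tissue MΦs depend on CSF1R, whose ligands are CSF1 and IL34, and send signals as chemokines, cytokines and growth factors while clearing dead cells through TAM receptors, scavenger receptors and complement. A ligand made in ECs with a receptor carried by MΦs, or the reverse, is the usual sign of a possible exchange, although RNA levels show neither the protein nor its release.

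The deposited values are scores, which are expression values normalized by the authors and given as integers from 1 upwards. Differences below are on the log2(score + 1) scale as ECs minus MΦs, with the standard error (SE) and the adjusted p of limma. A gene was called when it differed at least 2-fold with an adjusted p under 0.05, and genes with a mean score of 20 or more in either group were tested. Since a gene could pass that filter through the group in which it was high, each list's share of calls is read beside the share among all genes under the same filter. Many genes named below were picked as the largest called differences of a list among those whose groups did not overlap. For these genes the lack of overlap follows from the choice and is no finding.

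The sorted populations carried the labels' markers. Kdr, which encodes VEGFR2, the main VEGF receptor of ECs, had scores of 61402, 58413, 39326, 51315 and 44022 in ECs and of 75, 157, 181 and 279 in MΦs. Csf1r, which encodes the receptor that MΦs need to survive, had scores of 572, 345, 224, 264 and 375 in ECs and of 67905, 69938, 64649 and 70526 in MΦs. Neither gene overlapped between the groups, and the differences were 8.32 (SE 0.30, adjusted p = 2.79e-10) and -7.66 (SE 0.22, adjusted p = 6.02e-11). Leaving out the sorting gene Pecam1, all 14 endothelial markers were called higher in ECs, with summed scores of 429922 to 509230 in ECs and 2360 to 3705 in MΦs. Leaving out the sorting gene Itgam, all 14 macrophage markers were called higher in MΦs, with sums of 499237 to 593208 in MΦs and 3940 to 5872 in ECs.

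Other cell types were also traced in the libraries. Of the 12 pericyte and stromal markers, 7 were higher in ECs (Pdgfrb, Cspg4, Rgs5, Acta2, Myh11, Des and Notch3) and 4 in MΦs (Pdgfra, Col1a1, Dcn and Lum), and their sums were 53168, 21925, 18325, 74552 and 24213 in ECs, 2610 to 10766 in MΦs and 6080 to 14184 in No Dox ECs. Acinar markers summed to 71589 in EC sample 1 and to 235385 in MΦ sample 1, against 740 to 1192 and 2775 to 7152 in the other samples. Of the last range, Rbpjl, the only acinar marker called (-8.92), gave 1039 to 4353, and without it the sums of these MΦ samples were 1736 to 2799. Of 7 dendritic cell markers, 6 were higher in MΦs, with sums of 36255 to 53670 against 8782 to 10433, and Zbtb46, which gave most of the EC sum, was higher in ECs (8644 to 10399 against 3031 to 4386). All 7 tested neutrophil markers were higher in MΦs, with sums of 8423 to 14195 against 219 to 257, of which Csf3r gave 5434 to 9147 in MΦs, while Ly6g was too low to be tested (1 to 10 in MΦs). All 7 tested markers of T, B and NK cells were higher in MΦs as well, with sums of 520 to 2040 against 20 to 86, and so were 3 of 7 tested β cell markers (sums of 3636 to 7025 against 371 to 3339), with Mafa higher in ECs (46 to 276 against 15 to 26), and 4 of 6 tested markers of other islet endocrine cells (2819 to 6689 against 1895 to 2352). The neutrophil markers S100a9, Ly6g, Retnlg and Mpo were at the lowest score in all ECs. Of 4 tested lymphatic endothelial markers, 3 were higher in ECs, Flt4 among them (sums of 11763 to 12069 against 252 to 395). Of 5 tested erythroid and platelet markers, 3 were higher in MΦs (sums of 1864 to 2809 against 337 to 722). The part of these cells in the results below was not tested except where values without the libraries concerned are given. In bulk samples, fewer cells of a type and less RNA per cell cannot be told apart.

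Across all 15084 genes tested, 3339 (22.1%) were called higher in ECs and 3515 (23.3%) higher in MΦs, which is 45.4% in either direction. Of the 897 listed genes, 131 were too low in both groups to be tested. Among the 766 tested, 290 were called higher in ECs, 317 higher in MΦs and 159 were not called, a share of 79.2% called against the 45.4% of all genes. The listed genes that differed also did so by more: 404 of the 607 called listed genes (66.6%) differed over 8-fold against 42.1% of all called genes. The lists were chosen with earlier results of these data known. They also hold the sorting genes Pecam1 and Itgam and known markers of either population, such as Kdr and Csf1r. Higher shares than among all genes are therefore partly built into the lists and are no test of them. The groups did not overlap for 574 of the 607, a share close to the 92.5% of all called genes. Ligands (67 higher in ECs and 89 in MΦs of 197) and receptors (90 and 138 of 275) leaned to MΦs, and matrix genes leaned to ECs (134 and 90 of 295). The lean differed widely between families, as the plot of calls by list shows.

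**Figure D1:**
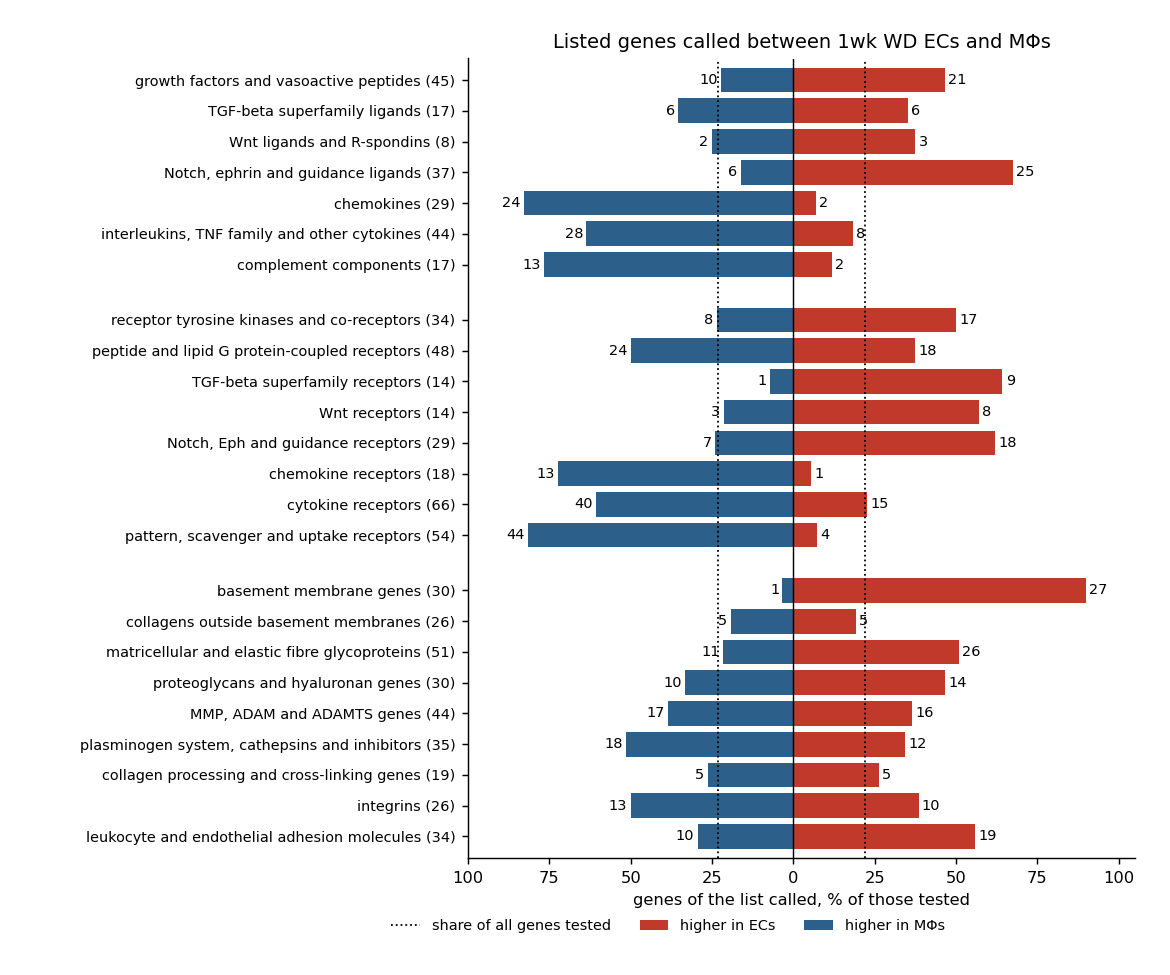
Share of each list's tested genes that was called higher in 1wk WD ECs (right) or MΦs (left), in percent, with the number of tested genes in brackets and the number called at each bar; dotted lines mark the shares among all genes, 22.1% and 23.3%. Basement membrane genes reach furthest to the EC side (27 of 30) and chemokines, complement components and pattern and scavenger receptors furthest to the MΦ side (24 of 29, 13 of 17 and 44 of 54).

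Growth factors were divided between the populations. Of 45 tested growth factors and vasoactive peptides, 21 were higher in ECs, 10 were higher in MΦs and 14 were not called, with a median difference of 1.05. The EC share was 46.7% against 22.1% of all genes, while the MΦ share of 22.2% was near the 23.3% of all genes. Esm1, a secreted proteoglycan of sprouting ECs, had EC scores of 31716, 31867, 33636, 44453 and 29566 and MΦ scores of 1, 5, 26 and 80, a difference of 11.38 (SE 0.82, adjusted p = 1.27e-07). Pdgfd, a ligand of PDGF receptor β, had EC scores of 45823, 35705, 33483, 55088 and 30529 and MΦ scores of 2, 85, 147 and 172 (9.59, SE 0.96, adjusted p = 2.61e-06). The lowest EC sample stood far above the highest MΦ sample for both genes. Fgf1, an acidic fibroblast growth factor, followed with EC scores of 6471 to 11519 and MΦ scores of 3 to 66 (8.72, SE 0.65). Kitl (stem cell factor), the vascular peptides Apln and Adm, and the neurotrophin Ntf3 were also higher in ECs, by 5.74, 6.42, 6.02 and 6.47.

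Of the growth factor list, Hgf and Apoe were higher in MΦs. Hgf, the ligand of MET and a mitogen of β cells among other epithelia, had EC scores of 20, 12, 28, 99 and 24 and MΦ scores of 2638, 3071, 2286 and 2949, a difference of -6.56 (SE 0.47, adjusted p = 1.32e-07). Apoe, a lipid carrier listed with the growth factors, had EC scores of 85 to 220 and MΦ scores of 97213 to 126151 (-9.35, SE 0.24, adjusted p = 3.13e-11). The groups did not overlap for either gene. Areg, an EGF receptor ligand, was listed at the lowest score in all 5 EC samples, and the neuregulins Nrg1 and Nrg2 and the PDGF ligand Pdgfc were also MΦ genes (-4.16, -6.32 and -5.36).

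Several growth factors known for islets or vessels did not reach the fold change of a call. Igf1, which signals through IGF1R and the insulin receptor, had EC scores of 12325, 13462, 11405, 12577 and 11606 and MΦ scores of 5298, 7037, 5838 and 8926. Every EC sample was above every MΦ sample, but the difference was 0.88 (SE 0.14, adjusted p = 1.56e-04). Mouse Vegfa, the native counterpart of the transgene, had EC scores of 147, 144, 241, 183 and 232 and MΦ scores of 361, 451, 321 and 281, a difference of -0.91 (SE 0.24, adjusted p = 0.00585). Every MΦ sample was above every EC sample, and again no call was made. Of its relatives, Vegfc was higher in ECs (2307 to 4708 against 84 to 266, 4.45, SE 0.32) and Vegfb, a ligand of FLT1, was higher in MΦs (324 to 549 against 66 to 170, -1.89, SE 0.32). Angpt2, the angiopoietin that ECs make, was higher in ECs (1399 to 1883 against 248 to 393, 2.38, SE 0.18), whereas Angpt1 and Pgf overlapped between the groups and were not called.

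The 17 tested TGF-β superfamily ligands had as many calls in each direction, 6 and 6. Bmp6, a BMP known from liver ECs as the iron signal to hepatocytes, had EC scores of 3557, 3899, 2845, 3758 and 2560 and MΦ scores of 43, 49, 52 and 26 (6.28, SE 0.23, adjusted p = 3.15e-10). Inhbb, the activin βB subunit, had EC scores of 110 to 381 and was listed at the lowest score in all 4 MΦ samples. Bmp4 and Tgfb2 were also higher in ECs (4.80 and 4.48). Tgfb1, the main TGF-β of leukocytes, had EC scores of 3342, 3050, 1858, 2267 and 2249 and MΦ scores of 7421, 7123, 6966 and 6927 (-1.51, SE 0.16, adjusted p = 4.38e-06). It was higher in every MΦ sample, but ECs were not without it. Gdf15, a stress-induced member, was higher in MΦs (-6.16). Of 8 tested Wnt ligands and R-spondins, 3 were higher in ECs and 2 in MΦs, and the largest difference was Wnt11, with scores of 115 to 264 in ECs and 2554 to 3303 in MΦs (-4.19, SE 0.26).

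Contact and guidance ligands lay mostly with the ECs. Of 37 tested Notch, ephrin and guidance ligands, 25 were higher in ECs and 6 in MΦs, with a median difference of 3.02. Sema3g, a class 3 semaphorin of arterial ECs, had EC scores of 4378, 5043, 6363, 5421 and 6525 and MΦ scores of 1, 11, 7 and 11 (9.63, SE 0.46, adjusted p = 3.18e-09). Dll4, the Notch ligand of endothelial tip and arterial cells, had EC scores of 5323, 5695, 3386, 3264 and 5459 and MΦ scores of 1, 21, 13 and 44 (8.44, SE 0.70, adjusted p = 4.45e-07). Efnb2, the arterial ephrin, was higher in ECs by 7.05, and Efna3 and Sema3a were listed at the lowest score in all MΦ samples. The exceptions were chiefly class 4 semaphorins: Sema4d, which signals through plexin B receptors, had EC scores of 32 to 63 and MΦ scores of 9033 to 11218 (-7.55, SE 0.21, adjusted p = 5.17e-11), and Sema4a, Sema4b and Sema4f were also higher in MΦs.

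Chemokines lay on the MΦ side. Of 29 tested, 24 were higher in MΦs, 2 in ECs and 3 were not called, and the median difference was -5.58. Ccl4, a chemokine that attracts monocytes, had EC scores of 1, 1, 2, 1 and 4 and MΦ scores of 13600, 18470, 12542 and 9716 (-12.31, SE 0.35, adjusted p = 5.16e-11). Ccl3, a ligand of CCR1, had EC scores of 2 to 15 and MΦ scores of 16576 to 35679 (-11.59, SE 0.45). Ccl7, Ccl8, Cxcl3 and Cxcl14 were listed at the lowest score in all 5 EC samples. The 2 chemokines higher in ECs were Cxcl12, the ligand of CXCR4, and Cx3cl1 (fractalkine), the ligand of CX3CR1. Cxcl12 had EC scores of 1862, 1563, 2125, 2037 and 2882 and MΦ scores of 5, 41, 41 and 28 (6.45, SE 0.50, adjusted p = 2.75e-07), and Cx3cl1 had EC scores of 799 to 2213 and MΦ scores of 227 to 284 (2.45, SE 0.26, adjusted p = 5.08e-06). Ccl17 and Ccl22, which dendritic cells also make, were among the MΦ genes (-8.46 and -11.11), and the dendritic cell marker sums given above moved in the same direction.

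Of 44 tested interleukins, TNF family members and other cytokines, 28 were higher in MΦs and 8 in ECs (median difference -2.47). Il1b, the secreted interleukin 1β, had EC scores of 1, 2, 2, 4 and 2 and MΦ scores of 24996, 22549, 19420 and 23028, a difference of -12.84 (SE 0.28, adjusted p = 1.04e-11). Tnf had EC scores of 2 to 7 and MΦ scores of 6575 to 11975 (-10.62, SE 0.39), and Osm, a cytokine of the interleukin 6 family, had EC scores of 1, 3, 1, 1 and 1 and MΦ scores of 1614, 2107, 902 and 1123 (-9.21, SE 0.39, adjusted p = 1.03e-09). For these 3 genes the ECs stood at or near the lowest score. The EC-side cytokine with the largest difference was Tnfsf10 (TRAIL), a death ligand, with EC scores of 28867, 30628, 33730, 30980 and 27454 and MΦ scores of 585, 566, 604 and 660 (5.65, SE 0.10, adjusted p = 2.86e-12). The type 2 cytokine genes Il5, Il13 and Il4 were also called higher in ECs, but at low scores (52 to 131, 18 to 99 and 18 to 50, against 1 to 2, 1 to 8 and 4 to 8).

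The ligands of CSF1R differed from each other. Il34 had EC scores of 545, 281, 287, 278 and 247 and MΦ scores of 28, 86, 55 and 79 (2.44, SE 0.37, adjusted p = 9.66e-05). All EC samples were above all MΦ samples. Csf1 had EC scores of 617, 547, 543, 547 and 549 and MΦ scores of 855, 1053, 759 and 741 (-0.59, SE 0.15, adjusted p = 0.00375). It was thus higher in every MΦ sample but short of a 2-fold difference, and both populations held it.

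Complement components lay mostly with the MΦs: 13 of 17 tested components were higher in MΦs and 2, Masp1 and C1s, in ECs. C1qb, a chain of the initiating C1q complex, had EC scores of 7, 5, 1, 4 and 9 and MΦ scores of 34828, 37760, 33321 and 36105 (-12.67, SE 0.39, adjusted p = 9.05e-11). C1qa and C1qc moved with it (-11.60 and -12.10), and C3, the central component, had EC scores of 30 to 82 and MΦ scores of 4581 to 10942 (-6.91, SE 0.33).

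**Figure D2:**
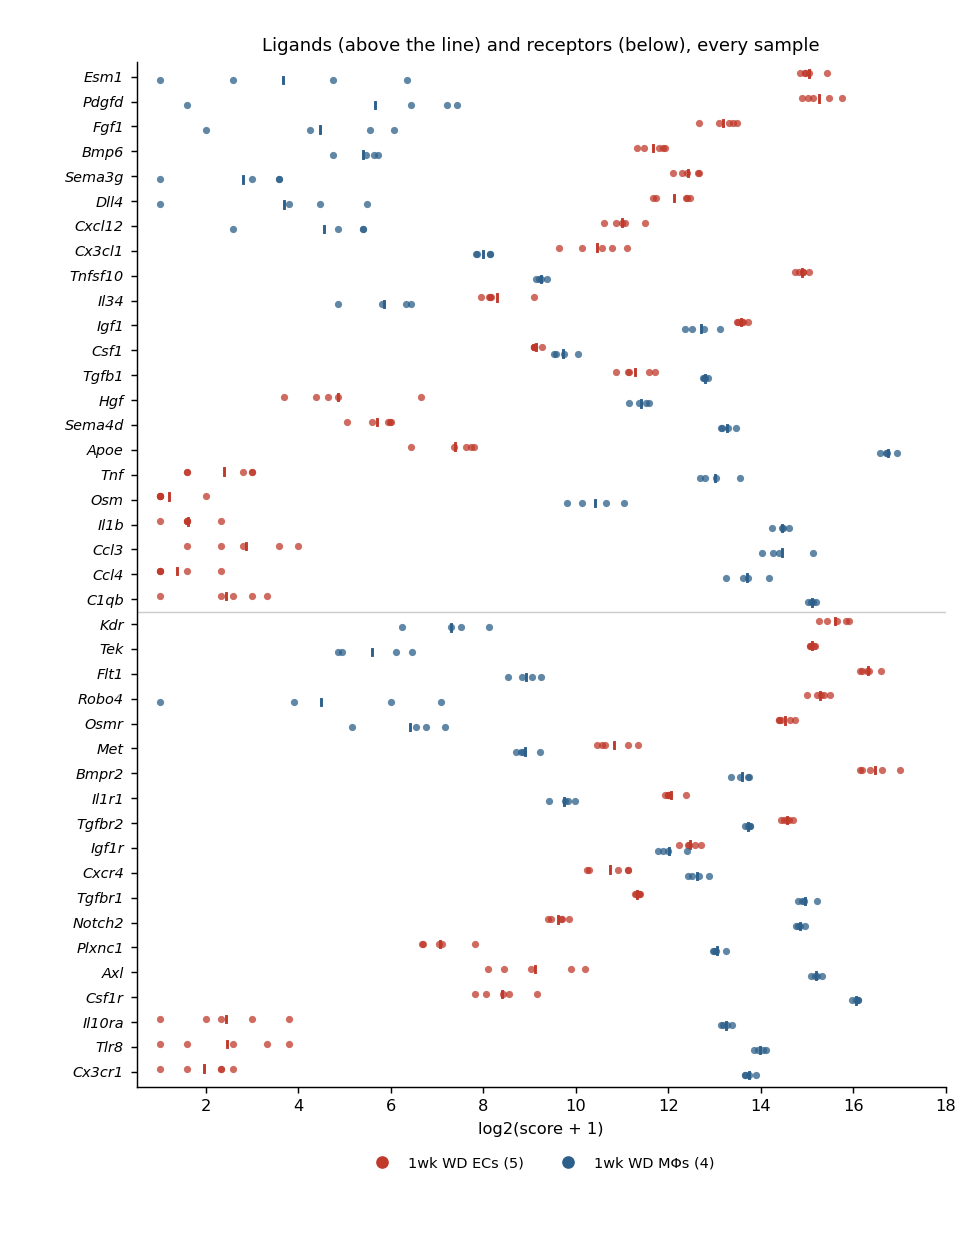
Scores of 22 ligands (above the line) and 19 receptors (below it) in every sample as log2(score + 1), with 5 ECs in red, 4 MΦs in blue and the group mean as a bar. Il1b, Ccl4 and Osm sit near the lowest score in ECs and Esm1, Sema3g and Robo4 spread over low scores in MΦs, while Igf1, Csf1, Tgfb1, Cxcr4 and Igf1r are present in both groups.

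The promoters of 4 genes are shown, of 9 searched. Emcn (11.13, SE 0.85) was among the genes with the largest differences on the EC side and Il1b and C1qb on the MΦ side, and Kdr was chosen as the VEGF-A receptor that marks the ECs. The deposited table places Kdr (ENSMUSG00000062960) at mm9 chromosome 5, 76328852 to 76374483, and Emcn (endomucin, an endothelial sialomucin, ENSMUSG00000054690) at chromosome 3, 137004031 to 137095149. It places Il1b (ENSMUSG00000027398) at chromosome 2, 129190306 to 129196875, and C1qb (ENSMUSG00000036905) at chromosome 4, 136436044 to 136442102. The 100 bases before each annotated start are given 5′ to 3′ on the gene's strand, from RefSeq on GRCm38.p6, at chr5:75978456-75978555 (minus), chr3:137340978-137341077 (plus), chr2:129371140-129371239 (minus) and chr4:136886201-136886300 (minus). Capitals mark a match to a searched motif.
Kdr: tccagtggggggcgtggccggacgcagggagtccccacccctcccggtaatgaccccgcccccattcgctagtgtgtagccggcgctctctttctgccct
Emcn: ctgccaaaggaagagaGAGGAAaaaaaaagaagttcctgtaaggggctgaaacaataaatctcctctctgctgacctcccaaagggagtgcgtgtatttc
Il1b: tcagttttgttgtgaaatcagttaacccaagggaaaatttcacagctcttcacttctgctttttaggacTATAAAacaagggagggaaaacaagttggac
C1qb: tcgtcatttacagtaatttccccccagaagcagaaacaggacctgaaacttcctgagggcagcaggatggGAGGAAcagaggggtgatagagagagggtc
The motifs searched on both strands were GAGGAA and the longer GAGGAAGT, which holds it (the core bound by PU.1, the ETS factor of myeloid cells), CCGGAAGT (ETS), TGANTCA (AP-1) and TATAAA (the core of a TATA box). GAGGAA stood in the Emcn window from position -84 and in the C1qb window from -30, so in a gene of either population, and TATAAA in the Il1b window from -31. Of the 9 genes, 5 had no match (Kdr, Esm1, Ccdc85a, Cyyr1 and Lyz2), and the windows of Ms4a7, not shown, held CCGGAAGT and TGANTCA. Of 32851 promoters, 9.82% held GAGGAA in the same window, 1.15% GAGGAAGT, 2.05% CCGGAAGT, 2.73% TGANTCA and 5.56% TATAAA, and the matches are a description of these letters alone.

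Receptors for vascular growth factors marked the ECs. Of 34 tested receptor tyrosine kinases and co-receptors, 17 were higher in ECs and 8 in MΦs, with a median difference of 1.74. Tek, the angiopoietin receptor, had EC scores of 34608, 36713, 34250, 36317 and 34351 and MΦ scores of 30, 28, 68 and 87 (9.51, SE 0.29, adjusted p = 8.77e-11). Flt1 (VEGFR1), which binds VEGF-A, VEGF-B and PlGF, had EC scores of 72250 to 99647 and MΦ scores of 371 to 604 (7.40, SE 0.15, adjusted p = 6.60e-12). Flt1 is also known from monocytes, but here every MΦ sample was far below every EC sample. Flt4 and Tie1 followed (8.92 and 8.20). The MΦ side held Csf1r, the dendritic cell growth factor receptor Flt3 (-9.99), and the TAM receptors Axl and Mertk, which bind GAS6 and PROS1 on dead cells. Axl had EC scores of 945, 346, 274, 1167 and 519 and MΦ scores of 38259, 37170, 34900 and 40996 (-6.08, SE 0.37, adjusted p = 2.48e-08), and Mertk had EC scores of 3298 to 4976 and MΦ scores of 11112 to 14289 (-1.61, SE 0.14). Mertk was therefore present in both populations.

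TGF-β superfamily receptors, 14 of them tested, were higher in ECs in 9 cases and in MΦs in 1 case. That case was Tgfbr1, the type I receptor of TGF-β, with EC scores of 2505, 2468, 2631, 2635 and 2663 and MΦ scores of 38242, 31257, 28478 and 30217 (-3.63, SE 0.10, adjusted p = 4.75e-11). Tgfbr2, the type II receptor that works with it, had EC scores of 22309 to 26369 and MΦ scores of 12902 to 14019, which did not overlap but differed by only 0.83 (SE 0.09, adjusted p = 3.77e-06). Bmpr2, the type II BMP receptor, was higher in ECs (72805 to 131286 against 10503 to 13663, 2.87, SE 0.17), as were the co-receptors Tgfbr3 and Eng (5.17 and 4.34). The chains of the TGF-β receptor thus leaned to different cells. Of 14 tested Wnt receptors, 8 were higher in ECs and 3 in MΦs, and Tspan12 and Fzd4, which together serve the vascular ligand norrin, were EC genes (8.77 and 5.62).

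Of 29 tested Notch, Eph and guidance receptors, 18 were higher in ECs and 7 in MΦs. Robo4, the endothelial roundabout receptor, had EC scores of 42018, 46000, 40638, 32654 and 37837 and MΦ scores of 1, 14, 63 and 135 (10.77, SE 0.93, adjusted p = 6.61e-07). Notch2 had EC scores of 823, 700, 927, 826 and 673 and MΦ scores of 31730, 27799, 29374 and 28687 (-5.22, SE 0.11, adjusted p = 1.04e-11), whereas Notch4 and Notch1 were higher in ECs (5.92 and 1.62). The Notch receptors were therefore split between the populations. Notch3, a mural cell receptor, was also called higher in ECs, with EC scores of 2384, 817, 639, 2306 and 1025 and MΦ scores of 84, 180, 314 and 180. Its 2 highest EC samples, 1 and 4, were those with the highest stromal marker sums. Plxnc1, the receptor of SEMA7A, had EC scores of 102, 101, 226, 137 and 131 and MΦ scores of 8327, 8058, 8121 and 9683 (-5.99, SE 0.22, adjusted p = 3.30e-10).

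Of 48 tested receptors for peptides and lipids, 18 were higher in ECs and 24 in MΦs. The apelin receptor Aplnr, the endothelin receptor Ednrb, the adrenomedullin receptor Calcrl and the sphingosine 1-phosphate receptor S1pr1 were on the EC side (7.36, 7.02, 4.89 and 4.80). The purine receptors P2ry12 and P2ry13 and the complement receptors C5ar1 and C3ar1 were on the MΦ side (-9.49, -10.04, -7.23 and -6.61).

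Receptors of immune signals lay with the MΦs. Of 18 tested chemokine receptors, 13 were higher in MΦs and 1 in ECs, which was Cxcr7, a scavenger of CXCL12 (8.69). Cx3cr1, the fractalkine receptor, had EC scores of 4, 2, 4, 1 and 5 and MΦ scores of 15275, 12992, 12869 and 13637 (-11.78, SE 0.33, adjusted p = 5.33e-11). Cxcr4 had EC scores of 1922, 2236, 1256, 1203 and 2251 and MΦ scores of 6465, 7557, 5878 and 5483 (-1.88, SE 0.21, adjusted p = 5.98e-06). Cx3cr1 was thus near the lowest score in ECs, and Cxcr4 was held by both. Of 66 tested cytokine receptors, 40 were higher in MΦs and 15 in ECs, and Il10ra, the ligand-binding chain for interleukin 10, had EC scores of 1 to 13 and MΦ scores of 9009 to 10626 (-10.81, SE 0.47). The EC side was led by Osmr, the oncostatin M receptor, with EC scores of 21382, 22072, 27389, 25371 and 21489 and MΦ scores of 35, 108, 144 and 92 (8.10, SE 0.32, adjusted p = 5.60e-10). Il1r1, the signalling receptor of interleukin 1, had EC scores of 4166, 4102, 4062, 5366 and 3904 and MΦ scores of 681, 908, 1013 and 872 (2.32, SE 0.14, adjusted p = 2.60e-08). The decoy receptor Il1r2 was in contrast higher in MΦs (-10.26).

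Of 54 tested pattern, scavenger and uptake receptors, 44 were higher in MΦs and 4 in ECs, with a median difference of -7.65. Tlr8, an endosomal RNA sensor, had EC scores of 5, 1, 2, 9 and 13 and MΦ scores of 17593, 15649, 14796 and 16981 (-11.53, SE 0.50, adjusted p = 1.33e-09). Mrc1 (CD206), the mannose receptor used as a mark of M2-like MΦs, had EC scores of 7 to 77 and MΦ scores of 70507 to 79570 (-11.19, SE 0.50, adjusted p = 1.84e-09). The lipid receptor Trem2 had MΦ scores of 1712 to 2330 and was listed at the lowest score in all ECs. The EC gene with the largest difference was Clec14a, an endothelial C-type lectin, with EC scores of 16355 to 24002 and MΦ scores of 4 to 76 (10.12, SE 0.65).

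Of all 24 lists, the basement membrane stood furthest to the EC side. Of its 30 tested genes, 27 were higher in ECs, 1 was higher in MΦs and 2, Lama2 and Smoc1, were not called, and the median difference was 5.67. The groups did not overlap for 26 of them, against 58.1% of all genes tested, and 22 differed over 8-fold. Lama3, a laminin α chain, had EC scores of 54447, 47861, 44537, 55214 and 46591 and MΦ scores of 7, 29, 47 and 143 (10.43, SE 0.60, adjusted p = 1.63e-08). Lama4, the α chain of the vascular laminins, had EC scores of 36356, 29045, 23761, 36459 and 21024 and MΦ scores of 34, 170, 209 and 243 (7.76, SE 0.47, adjusted p = 2.79e-08). The collagen IV chains, which form the network, behaved likewise: Col4a1 had EC scores of 74091, 66180, 53645, 62355 and 51336 and MΦ scores of 185, 833, 665 and 837 (6.81, SE 0.38, adjusted p = 1.07e-08). Col4a2, which pairs with it, differed by 5.87 (SE 0.24, adjusted p = 8.23e-10), with MΦ scores of 599, 1434, 1296 and 1357. MΦ sample 1 was the lowest for each of these chains.

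The linkers of the basement membrane followed the chains. Nid1, which joins laminin to collagen IV, had EC scores of 32935 to 54266 and MΦ scores of 277 to 1178 (5.98, SE 0.33), and Hspg2 (perlecan), its heparan sulfate proteoglycan, had EC scores of 54378 to 114545 and MΦ scores of 153 to 546 (7.60, SE 0.37). The γ1 chain Lamc1, common to most laminins, differed by 5.02 (SE 0.15, adjusted p = 8.08e-11). The smallest differences were found where the EC samples themselves were low or spread. Col4a5, an α chain of another collagen IV network, had EC scores of 166, 69, 22, 270 and 86 and MΦ scores of 28, 19, 21 and 21 (1.99, SE 0.61, adjusted p = 0.0125). It overlapped between the groups, and its highest scores were in EC samples 1 and 4, which were also highest in stromal markers. Without those 2 samples, 26 of the basement membrane genes were called higher in ECs. Smoc2, the 1 gene higher in MΦs, had scores of 1 to 77 in ECs and 28 to 137 in MΦs and overlapped (-2.63, SE 0.96, adjusted p = 0.0291), and it was not called when EC sample 2 or MΦ sample 3 was left out.

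**Figure D3:**
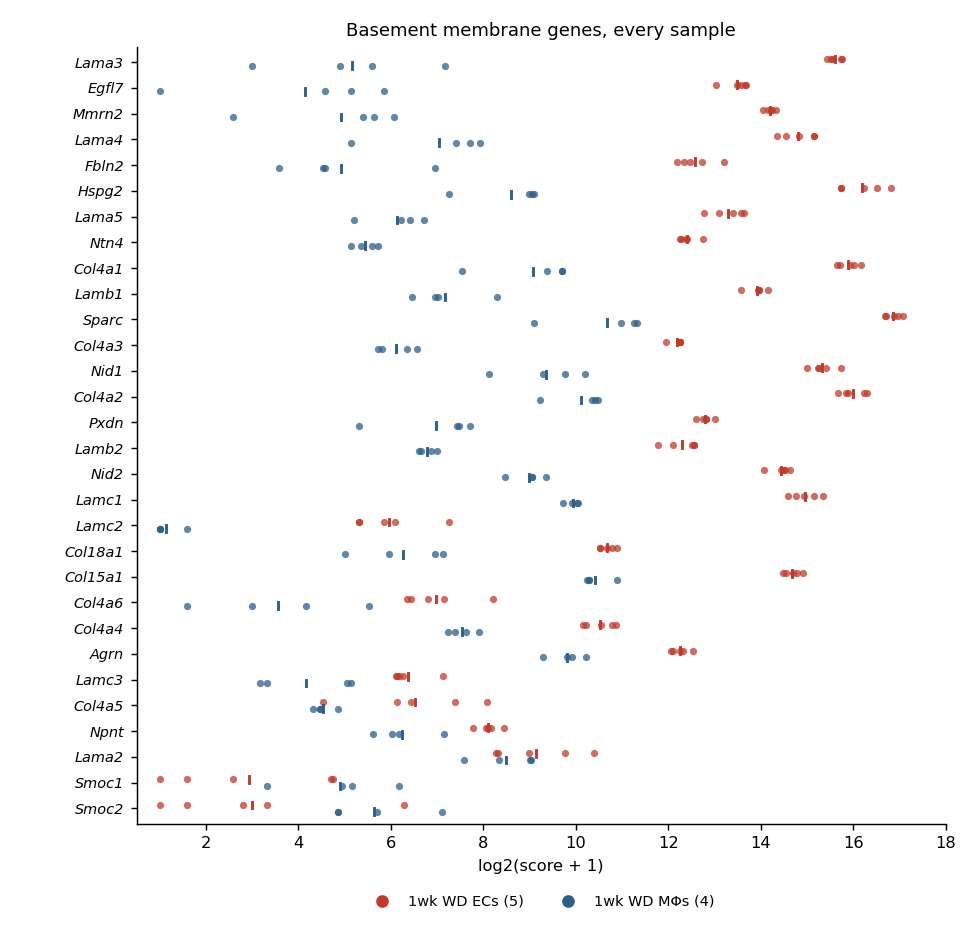
Scores of the 30 tested basement membrane genes in every 1wk WD sample as log2(score + 1), with ECs in red, MΦs in blue and the group mean as a bar, ordered by the difference. From Lama3 to Lamc3 and for Npnt all EC points lie to the right of all MΦ points, Col4a5, Lama2, Smoc1 and Smoc2 overlap.

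Collagens outside basement membranes did not share this pattern. Of 26 tested, 5 were higher in ECs and 5 in MΦs, and the 38.5% called lay below the 45.4% of all genes. Col13a1, a transmembrane collagen, had EC scores of 23711, 20603, 20616, 21569 and 21202 and MΦ scores of 2, 3, 22 and 43 (2050-fold from the log2 difference, whose SE was 0.66, adjusted p = 2.37e-08). The fibrillar Col1a1 had EC scores of 65, 55, 63, 201 and 64 and MΦ scores of 368, 1749, 1092 and 728 (-3.42, SE 0.48, adjusted p = 5.12e-05), whereas its partner Col1a2 had EC scores of 298 to 971 and MΦ scores of 305 to 1373, which overlapped (-0.44, SE 0.44, adjusted p = 0.400). The 2 chains of type I collagen were thus not called together, and Dcn and Lum, which mark fibroblasts, were higher in MΦs like Col1a1 (-3.99 and -3.73). Col19a1 had EC scores of 352, 75, 111, 517 and 73 and MΦ scores of 23, 36, 68 and 59 (1.90, SE 0.62, adjusted p = 0.0172). Its 2 highest samples were again EC samples 1 and 4, and without them the difference was 0.97 (adjusted p = 0.0901). It was also not called without MΦ sample 1 (1.61, adjusted p = 0.053).

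Of 51 tested matricellular and elastic fibre glycoproteins, 26 were higher in ECs and 11 in MΦs. Igfbp7, an IGF-binding protein of vascular matrix, had EC scores of 133942, 146917, 159430, 129438 and 97369 and MΦ scores of 438, 1047, 1149 and 1119 (7.23, SE 0.26, adjusted p = 3.15e-10). Thbs1, an activator of latent TGF-β that binds CD36 and CD47, had EC scores of 43584 to 59397 and MΦ scores of 2658 to 5446 (3.66, SE 0.19). Fn1 (fibronectin) was in contrast a MΦ gene, with EC scores of 377, 225, 500, 295 and 436 and MΦ scores of 6716, 8583, 5679 and 15691 (-4.58, SE 0.30, adjusted p = 5.37e-08). Every MΦ sample was over every EC sample for fibronectin, and MΦ sample 4 was the highest. Of 30 tested proteoglycans and hyaluronan genes, 14 were higher in ECs and 10 in MΦs. The hyaluronan link protein Hapln1 was on the EC side (9.94), and Cd44, the hyaluronan receptor, on the MΦ side with EC scores of 48 to 173 and MΦ scores of 30953 to 41974 (-8.87, SE 0.32).

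Among the matrix proteases, 44 MMP, ADAM and ADAMTS genes were tested and gave 16 calls for ECs and 17 for MΦs. Mmp13, an interstitial collagenase, had EC scores of 1, 1, 4, 1 and 2 and MΦ scores of 9908, 8586, 6624 and 7805 (-11.61, SE 0.34, adjusted p = 6.50e-11). Mmp8 and Mmp9 were listed at the lowest score in all ECs, whereas the proteoglycanases Adamts9 and Adamts1 were EC genes (8.54 and 6.94). Of 35 tested genes of the plasminogen system, cathepsins and inhibitors, 12 were higher in ECs and 18 in MΦs. Ctss (cathepsin S), a lysosomal protease of antigen-presenting cells, had EC scores of 18, 11, 20, 18 and 23 and MΦ scores of 38836, 57723, 51949 and 55130 (-11.41, SE 0.21, adjusted p = 4.67e-12). Timp3, the matrix-bound inhibitor of metalloproteases, had EC scores of 124361 to 163099 and MΦ scores of 254 to 1075 (7.92, SE 0.32). The activators of plasminogen were divided as well, with Plat (tPA) higher in ECs (5.49) and Plau (uPA) and its receptor Plaur higher in MΦs (-4.73 and -4.01). Of 19 genes of collagen processing and cross-linking, 5 were higher in ECs and 5 in MΦs (26.3% each, near the 22.1% and 23.3% of all genes). The largest difference was that of F13a1, the transglutaminase factor XIII-A (16 to 60 in ECs, 11410 to 17586 in MΦs, -8.57, SE 0.34).

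Of 26 tested integrin chains, which form the receptors of matrix, 10 were higher in ECs and 13, the sorting gene Itgam among them, in MΦs, with α and β chains on both sides. Itga1, a collagen IV receptor chain, had EC scores of 16390, 15714, 14730, 16778 and 15365 and MΦ scores of 152, 246, 320 and 325 (5.98, SE 0.20, adjusted p = 1.41e-10), and the laminin receptor chains Itga3 and Itga6 were also EC genes (6.04 and 2.44). Itgb2, the β chain of leukocyte integrins, had EC scores of 5 to 41 and MΦ scores of 13745 to 15633 (-9.96, SE 0.48), and Itga4, which binds VCAM1 and fibronectin, had EC scores of 202, 133, 159, 391 and 165 and MΦ scores of 25629, 32252, 26509 and 29805 (-7.19, SE 0.26, adjusted p = 2.90e-10). Itgb1, the common partner chain, had EC scores of 10744 to 13260 and MΦ scores of 5810 to 7156, and its difference of 0.90 (SE 0.10, adjusted p = 6.09e-06) was under 2-fold. It was thus high in both populations. Of 34 tested adhesion molecules, 19, the sorting gene Pecam1 among them, were higher in ECs and 10 in MΦs. Ptprb (VE-PTP), which restrains TEK, had EC scores of 198759, 187896, 192807, 209128 and 215124 and MΦ scores of 4, 108, 240 and 410 (11.19, SE 0.98, adjusted p = 7.68e-07). Vcam1 and Icam1, often used as marks of activated endothelium, were here higher in MΦs (15724 to 22425 against 480 to 1228, and 5492 to 7105 against 296 to 666, with differences of -4.76 and -3.90).

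Of the 290 listed genes called higher in ECs, 182 had their lowest MΦ score in MΦ sample 1 and 63 their highest there, ties included. Their summed score was 166341 in MΦ sample 1 and 173594 to 177272 in the other MΦ samples. The MΦ mean was under 20 for 57 of the 290, and 4 (Efna3, Inhbb, Npr3 and Sema3a) were listed at the lowest score in every MΦ sample. Of the 317 called higher in MΦs, 138 had an EC mean under 20 and 22 were listed at the lowest score in every EC sample. Differences of such genes depend on the pseudocount of 1 and are no bound on the ratio.

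Ligands and receptors were then read as pairs. Of 126 pairs taken from textbook knowledge, 125 had both genes in the table and 89 had both genes called. In 59 of the 89 the ligand and the receptor were higher in the same cell type, 29 in ECs and 30 in MΦs, and in 30 they were higher in opposite cell types. A pair of the last kind marks a route between the populations, not an interaction. Of those, 17 had the ligand in ECs and the receptor in MΦs, and 13 had them the other way round, with 29 distinct ligands and 25 distinct receptors.

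From ECs to MΦs, the pair of fractalkine and its receptor had the largest receptor difference (Cx3cl1 2.45 and Cx3cr1 -11.78). The pairs Il34-Csf1r (2.44 and -7.66), Sema7a-Plxnc1 (4.62 and -5.99) and Jam2-Itga4 (8.92 and -7.19) were called on both sides with groups that did not overlap, and so was Cxcl12-Cxcr4 (6.45 and -1.88). Selp, the endothelial P-selectin, had EC scores of 343, 596, 668, 713 and 316 and MΦ scores of 39, 101, 53 and 161 (2.69, SE 0.42, adjusted p = 1.30e-04), and its counter-receptor Selplg had EC scores of 72 to 216 and MΦ scores of 4641 to 5590 (-5.49, SE 0.29). Each was above the other population in every sample. The TAM ligands Gas6 and Pros1 were higher in ECs by 1.12 and 1.21 and their receptors Axl and Mertk higher in MΦs. The remaining pairs were Pdgfa-Pdgfra, Jag1-Notch2, Thbs1-Cd36, Vtn-Itgav, Mfge8-Itgav, Icam2-Itgal, Esm1-Itgal and Jam3-Itgam, the last with the sorting gene as receptor. Pdgfra overlapped between the groups (11 to 40 in ECs, 31 to 184 in MΦs) and was not called without MΦ sample 2 (adjusted p = 0.0665) or MΦ sample 3 (adjusted p = 0.0664), or with the No Dox samples in the fit (adjusted p = 0.0723). With replicate numbers as a block in the fit, Pdgfra was not called either (adjusted p = 0.0577).

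From MΦs to ECs, Osm-Osmr was the pair with the largest receptor difference (-9.21 and 8.10). Il1b, Il1a and the antagonist Il1rn were MΦ genes (-12.84, -6.74 and -9.49) facing Il1r1 in ECs, so that agonist and antagonist had the same direction. Hgf-Met joined a MΦ growth factor to a receptor with EC scores of 1584, 1508, 1411, 2612 and 2225 and MΦ scores of 462, 449, 417 and 598 (1.92, SE 0.20, adjusted p = 4.02e-06). Other pairs of this direction were Vegfb-Flt1, Sema4d-Plxnb1, Sema4a-Plxnd1, Lif-Lifr, Il6-Il6st, Tnfsf15-Tnfrsf25, Fn1-Itga5 and Inhba-Acvr2a. The ligands Il6 and Inhba overlapped between the groups, and Inhba was low in both (1 to 4 in ECs, 2 to 40 in MΦs). At No Dox, 28 of the 30 opposite pairs had both differences of the same sign, and the exceptions were Jag1-Notch2 and Vtn-Itgav.

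**Figure D4:**
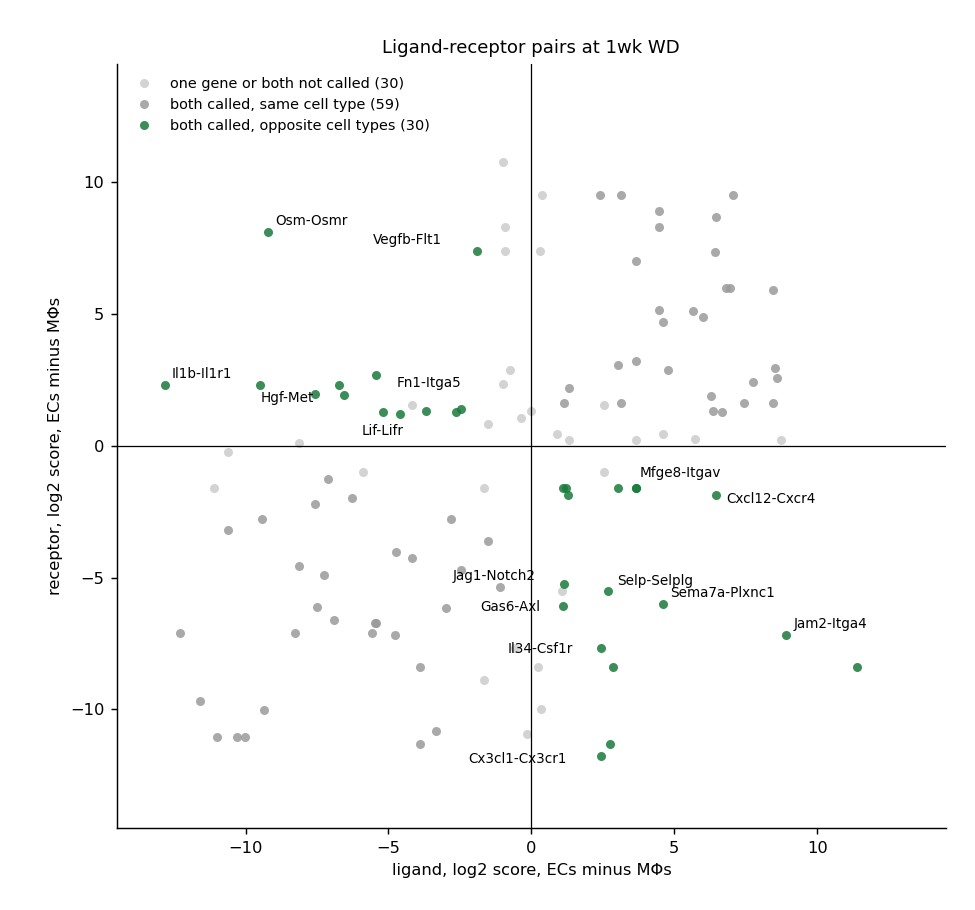
Difference of the ligand (horizontal) and of the receptor (vertical) in log2 score, ECs minus MΦs, for each pair with both genes tested; 30 pairs called in opposite cell types are green, 59 called in the same cell type dark grey and 30 with a gene not called light grey. Osm-Osmr lies furthest towards the upper left, and Jam2-Itga4 and Cx3cl1-Cx3cr1 lie low in the lower right quadrant.

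Most of these differences were there without induction. Of the 607 called listed genes, 594 had the same sign between the No Dox ECs and MΦs and 13 did not, and the share among all called genes was 97.2%. The median difference of basement membrane genes was 5.67 at 1wk WD and 5.91 at No Dox, that of chemokines -5.58 and -5.76, and that of guidance ligands 3.02 and 3.10. The EC minus MΦ difference at 1wk WD was then tested against that at No Dox in 17 samples. Of 15603 genes, 219 (1.4%) were called, 124 with a higher and 95 with a lower difference at 1wk WD, and of 784 listed genes 22 (2.81%) were called, 9 higher and 13 lower. The number over all genes rested on single libraries: it was 344 without EC sample 2, 140 without EC sample 4, 110 and 116 without MΦ samples 2 and 3, 129, 126, 92 and 133 without No Dox EC samples 1 to 4, and 362 without No Dox MΦ sample 4. The number of listed genes was 34 without MΦ sample 1, 14 without MΦ sample 2, 12 without No Dox EC sample 3 and 35 without No Dox MΦ sample 1.

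Among the ligands, Gas6 and Jag1 changed in opposite ways. Gas6 had No Dox scores of 5067, 5728, 7200 and 5629 in ECs and 596, 864, 241 and 502 in MΦs, against 1wk WD scores of 3989, 4287, 3117, 2613 and 3840 in ECs and 1558, 1711, 1516 and 1680 in MΦs. The EC minus MΦ difference was lower at 1wk WD (-2.43, SE 0.37, adjusted p = 0.00349), with lower EC and higher MΦ scores and no overlap of the time points in either population. Jag1, a Notch ligand, had No Dox scores of 2239, 2868, 2586 and 2650 in ECs and 2654, 2083, 2602 and 3129 in MΦs, against 3483, 3245, 3111, 3550 and 4216 and 1474, 1689, 1587 and 1589 at 1wk WD (1.15, SE 0.18, adjusted p = 0.00349). Its groups overlapped at No Dox and were apart at 1wk WD. Every 1wk WD EC sample was above every No Dox EC sample, and every 1wk WD MΦ sample was below every No Dox MΦ sample. The mean changes in log2 score were 0.44 in ECs and -0.71 in MΦs. Sema6d, a class 6 semaphorin, had a smaller gap at 1wk WD (-2.13, SE 0.24, adjusted p = 4.14e-04), with MΦ scores of 604 to 1007 at No Dox and 2855 to 3491 at 1wk WD. Jag2, Sema7a and Grn also had lower EC minus MΦ differences at 1wk WD (-1.78, -1.18 and -1.07), and so had Ccl7 (-1.66), whose MΦ scores were 705 to 871 at No Dox and 1870 to 3331 at 1wk WD. The calls of Jag2, Sema7a and Ccl7 were lost in fits without samples highest in stromal or acinar markers, as given below.

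Among the receptors, Met had No Dox scores of 757, 926, 794 and 948 in ECs and 613, 857, 669 and 475 in MΦs, and its difference was higher at 1wk WD (1.51, SE 0.29, adjusted p = 0.0134). Every 1wk WD EC sample, at 1411 to 2612, was above every No Dox EC sample. Ramp3, a partner of the adrenomedullin receptor, had EC scores of 2230 to 2895 at No Dox and 693 to 1533 at 1wk WD, and MΦ scores of 72 to 185 and 246 to 422 (-2.48, SE 0.40, adjusted p = 0.00512). Nrp1, a co-receptor of VEGF and semaphorins, had EC scores of 76483 to 90241 at No Dox and 42710 to 58640 at 1wk WD (-1.15, SE 0.20, adjusted p = 0.00719). Stab1, a scavenger receptor, and Itga9, an integrin chain, had lower differences as well (-1.29 and -1.17), with each 1wk WD MΦ sample above each No Dox MΦ sample.

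Among the matrix genes, Tgfbi, a TGF-β-induced matrix protein, had EC scores of 105, 130, 144 and 114 at No Dox and 641, 671, 511, 447 and 1125 at 1wk WD, with MΦ scores of 11506 to 16232 and 12353 to 15344 (2.33, SE 0.30, adjusted p = 0.001). The EC scores did not overlap between the time points, while the MΦ scores did. Lamb2, a laminin β chain, had EC scores of 6675 to 8139 at No Dox and 3492 to 6047 at 1wk WD and MΦ scores of 17 to 58 and 96 to 126 (-2.15, SE 0.38, adjusted p = 0.00913). Vwf, which ECs store for haemostasis, had EC scores of 744, 2220, 1101 and 1039 at No Dox and 2360, 2725, 3065, 3327 and 4111 at 1wk WD (1.92, SE 0.42, adjusted p = 0.0268). Its MΦ scores were 685 to 1365 at No Dox, where they overlapped those of ECs, and 493 to 967 at 1wk WD. The call was lost without EC samples 1 and 4, as given below. Gpc6, a glypican, had the largest increase among the listed genes called (3.12, SE 0.66, adjusted p = 0.0239). Its EC scores at 1wk WD were 2196, 789, 786, 4294 and 962, highest in EC samples 1 and 4, where stromal markers were highest. At No Dox they were 183 to 527. Its MΦ scores were 213 to 580 at No Dox and 169 to 318 at 1wk WD. The β cell samples of 1wk WD had higher Gpc6 scores, 2709 to 21576, and the part of other cells in the EC scores was not tested.

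Stromal and acinar markers moved with the time points, since stromal sums were higher in 1wk WD ECs than in No Dox ECs in every sample, and acinar sums at No Dox were 71266 to 1956097 in ECs and 29239 to 12976874 in MΦs. Without the 2 ECs highest in stromal markers, 102 genes were called in all and 14 of the listed ones, and Gpc6 remained called with a smaller difference (2.37, adjusted p = 0.0394). Without the EC and the MΦ sample highest in acinar markers, its difference was 2.83 and it was not called (adjusted p = 0.0591). Without the same 2 ECs, Vwf (2.00, adjusted p = 0.0547), Adamts6 (1.29, adjusted p = 0.0547), Cstb (-1.22, adjusted p = 0.0765), Jag2 (-1.69, adjusted p = 0.0841), Sema7a (-1.04, adjusted p = 0.122), Ccl7 (-1.66, adjusted p = 0.0778) and Adamts7 (-1.64, adjusted p = 0.0678) were not called, in a fit with 2 samples fewer. With all samples the differences of these 7 genes were 1.92, 1.37, -1.26, -1.78, -1.18, -1.66 and -1.50, in the same order. Jag2, Sema7a, Ccl7 and Adamts7 were not called without the EC and the MΦ sample highest in acinar markers either (-1.73, -1.03, -1.52 and -1.48, adjusted p = 0.0658, 0.0909, 0.0814 and 0.0613). Without the 3 No Dox libraries highest in acinar markers, 383 genes and 36 listed genes were called, but not Ccl7 (-1.67, adjusted p = 0.0719) or Adamts7 (-1.50, adjusted p = 0.0554), whose differences moved by less than 0.1. Gas6, Jag1, Met, Tgfbi, Sema6d, Ramp3 and Lamb2 were called under each of these, and also when any 1 of the 17 samples was left out. None of the 22 was called against a null of a 2-fold difference (limma treat, 0 genes called, 266 at an unadjusted p under 0.05).

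**Figure D5:**
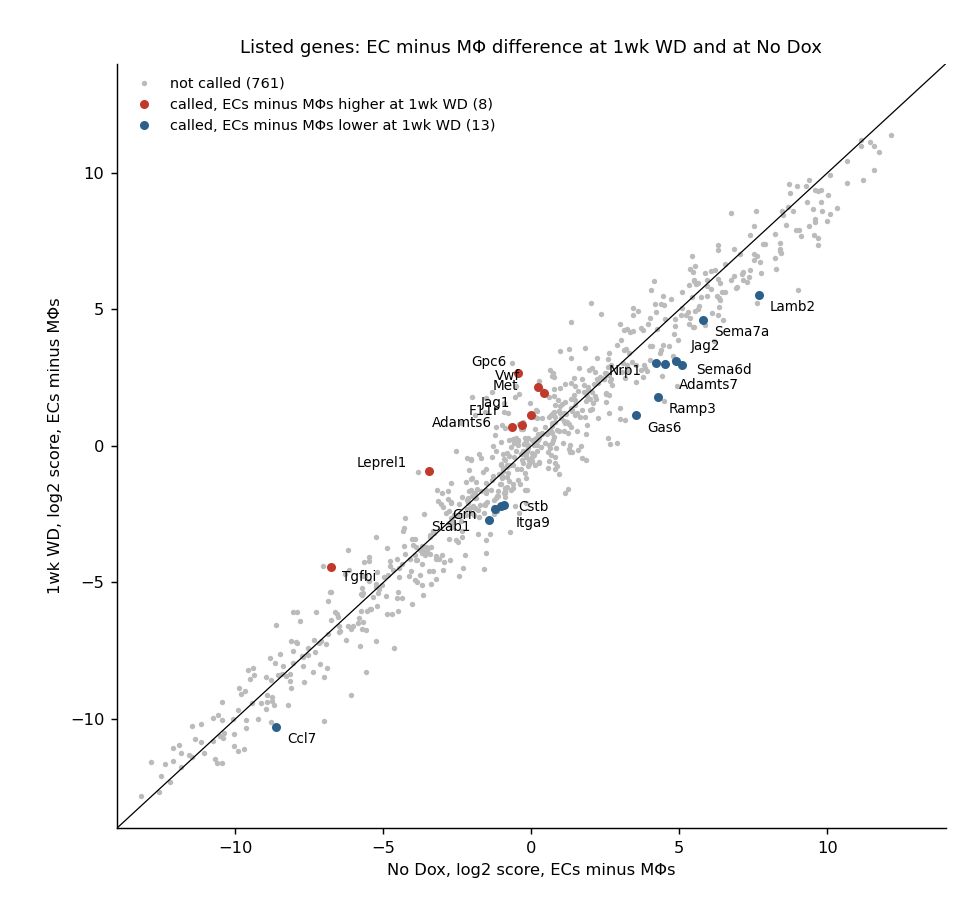
EC minus MΦ difference in log2 score at No Dox (horizontal) and at 1wk WD (vertical) for 782 of the 784 listed genes tested; 21 of the 22 called genes are drawn and named, 8 with a higher (red) and 13 with a lower difference at 1wk WD (blue), and the line marks equal differences. Points lie along the line from Ccl4 and Il1b to Esm1, and Gpc6, Vwf, Met and Jag1 stand above it near zero at No Dox.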

How the data were processed

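RNA of islet β cells, ECs and MΦs, separated by flow sorting, was amplified and sequenced in 32 samples. The deposited values are scores: the authors aligned reads with TopHat 2.0 to mm9 and normalized expression by TMM in Avadis NGS, and gave integers from 1 upwards. Read depth per sample is unknown, so no detection limits were given; summed scores of the 9 samples were 31138639 to 34570556. Columns were matched to samples by title, and 6 value columns of no sample used here were left out.

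Genes with a mean score of 20 or more in either group were tested with limma 3.58.1 in R 4.3.3 (pseudocount 1, trended empirical Bayes, Benjamini-Hochberg over all genes), 1wk WD ECs against MΦs, and that difference against the same at No Dox. Both models were also run on simulated data with planted differences, whose outcome is not given here and is not used as support. The study describes the samples as biological replicates, each pooled from the islets of several mice, so p-values measure the spread between these pools. Of 22850 genes, 123 symbols named more than 1 gene. Results of 1 gene called against No Dox are not reported here. Members and lists were chosen with earlier results of these data known. Named by rule were Kdr and Csf1r, in each list up to 4 called genes per direction with the largest differences and no overlap and up to 2 genes not called with the highest scores, genes of opposite pairs, and listed genes called against No Dox; other genes were named for their known roles after their values were seen. Alternatives changed the scaling, pseudocount, filter, fold change, spread model, block and samples. Promoter matches were not summarised over lists, since 455 of 607 called listed genes (75.0%, with 80 needed) had a promoter in the RefSeq table, and Ptprb and Ccl4 had no entry.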

Additional observations from a re-analysis of the deposited data

Results flagged for a closer look

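In 19 of 208 groups of samples examined for the genes and marker sums shown, 1 sample stood apart from the rest by Dixon's criterion, and chance alone marks about 1 in 20. In EC sample 4 this was so for Esm1 (44453), Vegfc (4708), Hgf (99), Il1r1 (5366), Col1a1 (201) and Itga4 (391), each the highest EC score. EC sample 1 was the highest EC for Csf1 (617), Il34 (545) and the acinar marker sum (71589), EC sample 2 for Osm (3) and EC sample 3 for Plxnc1 (226). MΦ sample 1 was the lowest MΦ for Col4a2 (599), Hspg2 (153) and Igfbp7 (438), and the highest for Itgam (29800) and the acinar marker sum (235385). MΦ sample 4 was the highest for Plxnc1 (9683) and Mrc1 (79570), and MΦ sample 3 for the β cell marker sum (7025). EC sample 4 also had the highest stromal marker sum, and the part of these cells in its scores was not tested.

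The EC minus MΦ difference at 1wk WD departed from that at No Dox for 22 listed genes, by the limma test of the difference itself, and 21 of them are given here. It was higher at 1wk WD for Gpc6 (3.12), Leprel1 (2.55), Tgfbi (2.33), Vwf (1.92), Met (1.51), Adamts6 (1.37), Jag1 (1.15) and F11r (1.05). It was lower for Ramp3 (-2.48), Gas6 (-2.43), Lamb2 (-2.15), Sema6d (-2.13), Jag2 (-1.78), Ccl7 (-1.66), Adamts7 (-1.50), Stab1 (-1.29), Cstb (-1.26), Sema7a (-1.18), Itga9 (-1.17), Nrp1 (-1.15) and Grn (-1.07). For Jag1, Gpc6, Adamts6 and F11r the sign of the difference was not the same at No Dox.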

How the results depend on the processing

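No named gene reversed its direction under any alternative, but many were named for large differences, for which a reversal was hardly possible. Of the listed genes, 274 of 290 calls for ECs and 297 of 317 for MΦs were kept when any 1 of the 9 samples was left out, and 200 and 213 under all 11 other settings, which include a fold change of 4 and the added ones. Without single samples, Wnt ligands higher in MΦs were 1 to 2, basement membrane genes higher in MΦs 0 to 2, chemokine receptors higher in ECs 1 to 2, and genes and listed genes called against No Dox 92 to 362 and 12 to 35. At a fold change of 4, 2041 genes were higher in ECs and 2185 in MΦs, with 4 TGF-β receptors, 3 other collagens and 3 cross-linking genes higher in ECs, 3 other collagens and 6 proteoglycan genes higher in MΦs, and 81 genes and 8 listed genes against No Dox. With a minimum mean score of 200, fewer low genes were tested: growth factors higher in MΦs were 6, Wnt ligands 1, cytokines 18 (3 in ECs), complement 8, receptor tyrosine kinases 5, basement membrane 0, matricellular 7 and cross-linking 3. With limma's treat against a fold change of 2, cytokines higher in ECs were 5, complement 1, TGF-β receptors 5 and other collagens 3, other collagens higher in MΦs were 3 and basement membrane 0, and none was called against No Dox (0 genes and 0 listed genes). Wnt ligands higher in MΦs were 1 with a pseudocount of 20 or quantile normalization, listed genes against No Dox 39 with a pseudocount of 20, and basement membrane genes higher in MΦs 2 without a filter. Of the alternatives added after seeing the data, leaving out the EC and MΦ samples highest in acinar markers gave 0 basement membrane genes higher in MΦs, leaving out the 2 ECs highest in stromal markers gave 102 genes and 14 listed genes against No Dox, and leaving out 3 No Dox samples highest in acinar markers gave 383 and 36. The causes were not tested.

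With replicate numbers as a block, 3317 genes were higher in ECs and 3534 in MΦs, 2 chemokine receptors were higher in ECs, and 198 genes were called against No Dox. Pdgfra was not called with the block (-1.92, adjusted p = 0.0577). Same-numbered EC and MΦ samples had correlations of their deviations of 0.173, 0.15, -0.066 and 0.123. Those of samples with different numbers ran from -0.14 to 0.107. EC sample 1 and MΦ sample 1 were also both the highest of their group in acinar markers. Whether same-numbered samples came from shared preparations was not settled, so the main fit had no block and the counts with it are given here. Read depth is unknown, and scores near 1 limit the differences of the lowest genes.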
